A study of Mus musculus with 6 samples.

Results

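The genes described here are the stress transcription factor Atf4, genes known as parts or targets of the stress pathway that raises it, and inhibitors of the growth kinase mTORC1. They are Atf4, Ddit3, Trib3, Chac1, Asns, Sesn2, Ddit4, Ppp1r15a, Vldlr and Fgf21, 10 genes of the 55426 features in the count table, found by matching each Ensembl identifier to its GENCODE M21 name. These names occur on 11 rows, because a second Ddit3 identifier, ENSMUSG00000116429, is listed with 0 counts in every sample. RNA was sequenced from primary pancreatic stellate cells (PSCs), the fibroblast precursors of the pancreas, isolated from adult wild-type C57BL/6 mice and kept for 48 h with mT3 organoids at 21% O2 (normoxia, n = 3) or at 1% O2 (hypoxia, n = 3). mT3 is a cell line from a pancreatic ductal adenocarcinoma (PDAC) of KPC mice, a genetic model of the disease. PSCs in Matrigel in a transwell insert shared the medium with the organoids below, so both groups were cocultures and none held PSCs alone. Library totals ran from 24749601 to 31925054 counts. The labels do not say whether replicates were separate PSC lines, so p-values measure the spread between these samples, which may be technical.

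Cells under amino acid shortage, misfolded protein in the endoplasmic reticulum (ER), heme loss or viral RNA activate kinases that phosphorylate the translation factor eIF2. This slows most protein synthesis but favours translation of the Atf4 mRNA, and ATF4 then drives genes for amino acid supply, redox balance and cell death, a program called the integrated stress response. Because ATF4 is controlled largely at translation, an mRNA level does not report the amount of ATF4 protein. mTORC1 is a kinase that promotes growth when amino acids and energy suffice, and DDIT4 (REDD1) and SESN2 (Sestrin 2) restrain it.

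Hypoxic PSCs held more Vldlr, Fgf21, Ppp1r15a and Ddit4 mRNA than normoxic PSCs, while the enzyme genes Asns and Chac1 had lower means and Atf4 itself differed by a fold change of only 1.15. A gene was called when its fold change was beyond 1.5 and its adjusted p was under 0.05 in edgeR's quasi-likelihood test with Benjamini-Hochberg adjustment over all 16207 genes that passed a filter on low counts. By this rule 4 of the 10 genes were called higher, against 18.9% of all genes tested, and 0 were called lower, against 15.3%. Calls in either direction made up 34.2% of all genes tested. DESeq2 also called 0 of the 10 lower, and at an unadjusted edgeR p under 0.05, 2 were lower and 5 higher, as were 33.1% and 33.4% of all genes tested. At an adjusted p under 0.05 alone, 7 of the 10 passed, 5 of them higher and 2 lower, where 62.7% of all genes tested passed, 31.8% higher and 31.0% lower. Hypoxic and normoxic values were separate for 7 of the 10, with hypoxia above for 5 and below for 2, and this held for 68.9% of all genes tested, 34.9% above and 34.0% below. The median log2 fold change of the 10 genes was 0.25, and that of all genes tested was -0.00. In bulk RNA, fewer cells of a type and less RNA per cell cannot be told apart.

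**Figure D1:**
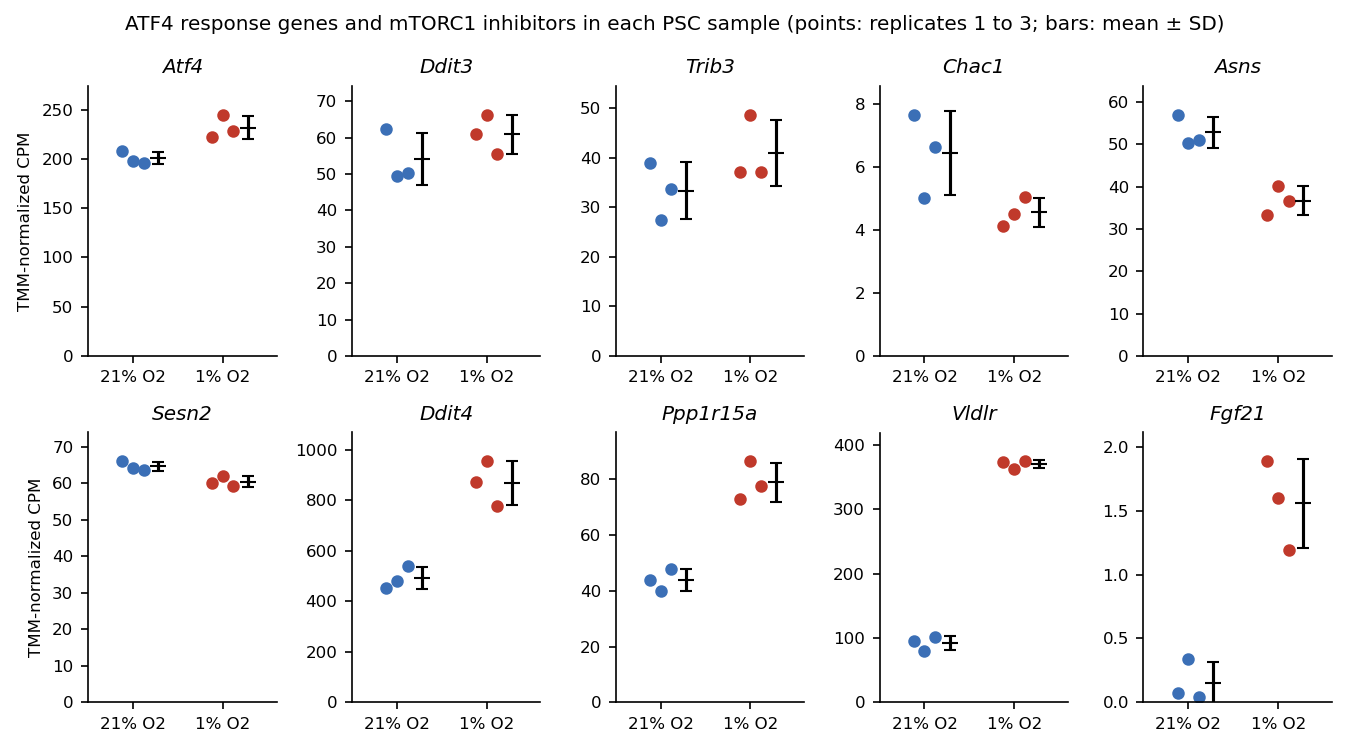
Normalized CPM (vertical axes, each starting at 0) of the 10 genes in each sample. Blue points are the 3 samples at 21% O2, red points the 3 at 1% O2, and bars show the mean ± SD, the lower end of the normoxic Fgf21 bar being cut at the axis. Vldlr, Ddit4, Ppp1r15a and Fgf21 lay higher in all 3 hypoxic samples, Asns lay lower, and Ddit3, Trib3 and Chac1 overlapped.

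The promoters of these genes were searched for known binding letters. ATF4 with its C/EBP partners is known to bind a C/EBP-ATF response element with the core TGATGNAA, and hypoxia-inducible factor (HIF) to bind ACGTG or GCGTG. Windows of 300 bases, from 250 before to 50 after each start in RefSeq on GRCm38.p6, were read on both strands. TGATGNAA occurred in 3.97% of 32851 windows and in those of 5 of the 10 genes, Asns, Chac1, Fgf21, Trib3 and the second of the 2 starts of Vldlr. The matches are shown 5′ to 3′ on the strand of the gene with the match in capitals, because these genes did not move alike. TTGCATCA and TTACATCA are the core read from the other strand. Positions count from the start, negative before it.
Asns, minus strand, chr6:7693214-7693243, match at -23: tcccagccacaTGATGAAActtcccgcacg
Chac1, plus strand, chr2:119351009-119351096, match at -193: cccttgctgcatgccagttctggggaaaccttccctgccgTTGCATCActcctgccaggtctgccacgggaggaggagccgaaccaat
Fgf21, minus strand, chr7:45615582-45615669, match at -139: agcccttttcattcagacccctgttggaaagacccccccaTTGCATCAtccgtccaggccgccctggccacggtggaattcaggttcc
Trib3, minus strand, chr2:152344028-152344057, match at 15: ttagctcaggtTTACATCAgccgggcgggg
Vldlr, plus strand, chr19:27216809-27216838, match at -200: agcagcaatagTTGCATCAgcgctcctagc

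Of the 5 genes with TGATGNAA, Fgf21 and Vldlr were called higher, and Asns, Chac1 and Trib3 were not called. Ddit4 and Ppp1r15a, the other genes called higher, had no match to it in these windows, nor did Atf4, Ddit3 and Sesn2. ACGTG was found in 19.6% of all windows and in 5 of the 10 genes, Asns, Ddit3, Ddit4, Fgf21 and Ppp1r15a, the Fgf21 match being a palindrome that counts on both strands. GCGTG was found in 32.4% of all windows and in 8 of the 10. The ACGTG matches of Ddit4 and Ppp1r15a are given in capitals, as both genes were called higher and hold no TGATGNAA.
Ddit4, minus strand, chr10:59951913-59951997, match at -187: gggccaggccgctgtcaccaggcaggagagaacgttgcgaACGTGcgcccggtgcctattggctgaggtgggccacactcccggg
Ppp1r15a, minus strand, chr7:45526452-45526481, match at -201: aaatggcacggtACGTGactgccagataag
Ppp1r15a, minus strand, chr7:45526411-45526440, match at -160: tgctcggaaattACGTGagatcgacggctc
A match is a run of letters, and binding was not measured here.

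Atf4 and Ddit3 encode the central factors of the pathway. Atf4 (ENSMUSG00000042406, chr15:80255184-80257541, plus strand) was measured at 208, 198 and 196 CPM, where CPM are counts scaled to a common library size, in normoxic replicates 1, 2 and 3 and at 222, 245 and 228 CPM in the hypoxic ones. The hypoxic values all exceeded the normoxic ones, but the means of 201 ± 6.49 and 232 ± 11.5 CPM (SD, n = 3 each, as in all values below) were close. The log2 fold change was 0.21 (SE 0.06, 95% interval 0.08 to 0.34), with an adjusted p of 0.0112 by edgeR's quasi-likelihood test and a fold change of 1.15, under the threshold. Without normoxic replicate 3 its adjusted p was 0.0531.

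Ddit3 encodes CHOP, a factor that ATF4 induces and that is known for promoting cell death under lasting stress. Ddit3 (ENSMUSG00000025408, chr10:127290774-127296288, plus strand) was at 62.4, 49.5 and 50.4 CPM in normoxia and at 60.9, 66.3 and 55.6 CPM in hypoxia. The groups overlapped, with normoxic replicate 1 above 2 of the hypoxic samples. The log2 fold change of 0.17 (SE 0.10, 95% interval -0.05 to 0.39) did not pass, with an adjusted p of 0.161. Without normoxic replicate 1 it was 0.28, with an adjusted p of 0.0166 and still below the fold threshold. It was 0.10 without hypoxic replicate 2 (adjusted p 0.430), 0.10 without normoxic replicate 2 (adjusted p 0.385) and 0.12 without normoxic replicate 3 (adjusted p 0.411). Its exons overlap those of Mars on the other strand by 68 bases, and how the counting treated strand is not given in the sources used here. Within each sample the log2 ratio of Ddit3 to Atf4 averaged -1.90 in normoxia and -1.93 in hypoxia.

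Trib3 encodes a pseudokinase induced by ATF4 and CHOP that is known to hold both back. Trib3 (ENSMUSG00000032715, chr2:152337422-152344032, minus strand) was at 39.0, 27.4 and 33.7 CPM in normoxia and at 37.2, 48.7 and 37.2 CPM in hypoxia. Normoxic replicate 1 lay above 2 hypoxic samples. The log2 fold change was 0.30 (SE 0.14, 95% interval -0.02 to 0.62), with an adjusted p of 0.0899. It depended on single samples in both directions. Without normoxic replicate 1 it was 0.42, with an adjusted p of 0.0274, whereas without hypoxic replicate 2 it was 0.15 (adjusted p 0.327) and without normoxic replicate 2 it was 0.17 (adjusted p 0.254).

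The amino acid and redox enzymes had lower means in hypoxia. Asns encodes asparagine synthetase, a classic ATF4 target. Asns (ENSMUSG00000029752, chr6:7675169-7693254, minus strand) was at 57.0, 50.4 and 51.1 CPM in normoxia and at 33.3, 40.3 and 36.7 CPM in hypoxia. All 3 hypoxic samples were below all 3 normoxic samples. The means were 52.8 ± 3.61 and 36.7 ± 3.51 CPM, a log2 fold change of -0.52 (SE 0.08, 95% interval -0.71 to -0.34) with an adjusted p of 0.000452. That is 1.44-fold lower, just under the fold threshold of 1.5, and Asns was called lower without hypoxic replicate 2.

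Chac1 encodes an enzyme that breaks down glutathione and is induced through ATF4 and CHOP. Chac1 (ENSMUSG00000027313, chr2:119351229-119354381, plus strand) was among the less abundant genes, at 7.66, 5.01 and 6.65 CPM in normoxia and at 4.12, 4.50 and 5.06 CPM in hypoxia. Normoxic replicate 2 lay within the hypoxic range. The log2 fold change was -0.49 (SE 0.17, 95% interval -0.89 to -0.10), with an adjusted p of 0.0329, under the fold threshold. This rests on single samples, since leaving out 1 sample raised the adjusted p above 0.05 in 4 of 6 cases, to 0.122 without normoxic replicate 1 (log2 fold change -0.35), 0.0980 without hypoxic replicate 1, 0.0838 without normoxic replicate 3 and 0.0733 without hypoxic replicate 2. Without normoxic replicate 2 the log2 fold change was -0.65, with an adjusted p of 0.00399, and Chac1 was then called lower.

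Ppp1r15a encodes GADD34, the inducible subunit that brings protein phosphatase 1 to eIF2 and ends the stress response. Ppp1r15a (ENSMUSG00000040435, chr7:45522916-45526268, minus strand) was at 43.9, 39.9 and 47.6 CPM in normoxia and at 72.7, 86.3 and 77.3 CPM in hypoxia. All hypoxic samples were above all normoxic samples. The mean rose from 43.8 ± 3.87 to 78.8 ± 6.88 CPM, a fold change of 1.80 (log2 0.85, SE 0.08), with an adjusted p of 2.85e-05. Its exons overlap those of Tulp2 on the other strand by 12 bases. The constitutive relative Ppp1r15b was at means of 104 and 103 CPM, a log2 fold change of -0.01 with a 95% interval of -0.13 to 0.11.

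The mTORC1 inhibitors behaved differently from each other. Ddit4 (ENSMUSG00000020108, chr10:59949669-59951834, minus strand), which acts through the TSC complex and is also a known HIF target, was at 455, 481 and 539 CPM in normoxia and at 871, 954 and 778 CPM in hypoxia. The hypoxic values all exceeded the normoxic ones. The mean rose from 492 ± 43.3 to 868 ± 88.0 CPM, a fold change of 1.76 (log2 0.82, SE 0.09, 95% interval 0.61 to 1.03), with an adjusted p of 5.96e-05. Its paralog Ddit4l was at 5.84 ± 0.224 and 5.31 ± 2.71 CPM and did not pass, with an adjusted p of 0.725.

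Sesn2 encodes a leucine-binding protein that acts on the GATOR complexes upstream of mTORC1. Sesn2 (ENSMUSG00000028893, chr4:132492032-132510501, minus strand) was at 66.0, 64.3 and 63.7 CPM in normoxia and at 60.2, 62.1 and 59.2 CPM in hypoxia. Although hypoxia was below normoxia in every sample, the difference was small, with a log2 fold change of -0.10 (SE 0.05, 95% interval -0.21 to 0.02) and an adjusted p of 0.122. The other sestrins had larger differences. Sesn3, a target of FOXO factors, fell from 152 ± 17.2 to 53.5 ± 2.75 CPM (log2 fold change -1.51, adjusted p 1.04e-06). Sesn1 was at 31.1 ± 2.49 and 22.0 ± 3.10 CPM, with a log2 fold change of -0.50 and an adjusted p of 0.00245, under the fold threshold. Within each sample the log2 ratio of Sesn2 to Sesn3 averaged -1.23 ± 0.15 in normoxia and 0.18 ± 0.09 in hypoxia, without overlap.

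Vldlr encodes a lipoprotein and reelin receptor that both ATF4 and HIF are known to induce. Vldlr (ENSMUSG00000024924, chr19:27216484-27254231, plus strand) was at 95.7, 79.9 and 101 CPM in normoxia and at 374, 363 and 375 CPM in hypoxia. The groups were far apart against a small spread. The mean rose from 92.2 ± 11.1 to 371 ± 6.43 CPM, a fold change of 4.02 (log2 2.01, SE 0.09, 95% interval 1.81 to 2.20), with an adjusted p of 2.07e-07. Of all genes tested, 5.85% had a larger absolute log2 fold change. Its relative Lrp8, the other reelin receptor, was at 26.3 ± 4.28 and 32.2 ± 4.27 CPM, with an adjusted p of 0.0722.

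Fgf21 encodes a stress hormone known mainly from liver. Fgf21 (ENSMUSG00000030827, chr7:45613886-45615490, minus strand) was rare, with 2, 9 and 1 counts in normoxia and 48, 50 and 38 counts in hypoxia. All hypoxic samples were above all normoxic samples, of which replicates 1 and 3 were at or under 3 counts, the limit that a count of 0 allows. Summed over the samples, 12 and 136 counts gave a ratio of rates of 9.84, with an exact 95% interval of 5.45 to 19.5 that covers counting error only. The mean rose from 0.153 ± 0.164 to 1.56 ± 0.347 CPM, with a fitted log2 fold change of 3.28 (SE 0.51) and an adjusted p of 0.000471. Leaving out 1 sample moved this value between 2.85, without normoxic replicate 3, and 4.60, without normoxic replicate 2. Fgf21 passed the filter through its hypoxic samples alone, and of the 9 genes that reached the cutoff of 0.386 CPM in both groups, 3 were called higher.

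**Figure D2:**
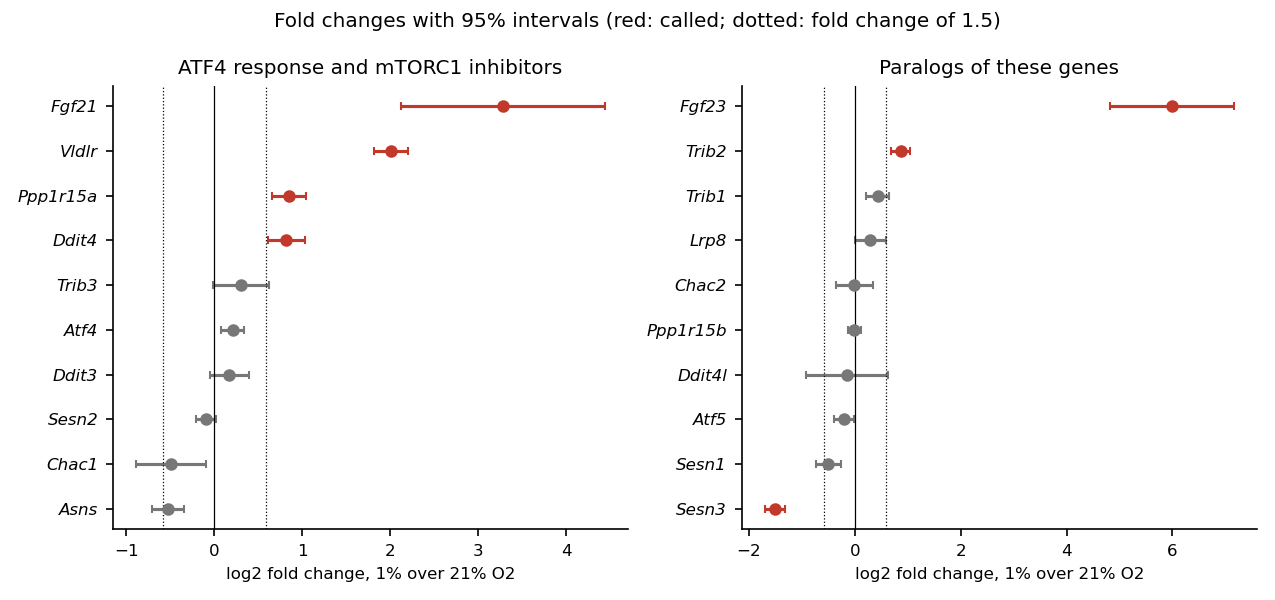
Log2 fold changes of hypoxia over normoxia (horizontal axes) for the 10 genes (left) and for 10 of their paralogs (right), with 95% intervals from edgeR's fit as bars. Red marks genes called at a fold change beyond 1.5 (dotted lines) and an adjusted p under 0.05. Vldlr at 2.01 and Fgf21 at 3.28 stand far to the right on the left side, and Fgf23 at 5.99 and Sesn3 at -1.51 lie at the ends on the right side.

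Of 11 paralogs, 10 were tested. Where 18.9% of all genes tested were called higher and 15.3% lower, 2 of these paralogs were called higher and 1 lower. Besides Sesn3, these were Trib2, a pseudokinase related to Trib3, which rose from 45.6 ± 2.94 to 82.9 ± 7.01 CPM (log2 fold change 0.86, adjusted p 1.48e-05), and Fgf23. Fgf23, the phosphate hormone made mainly in bone and an endocrine relative of Fgf21, had 9, 7 and 8 counts in normoxia and 274, 995 and 554 in hypoxia. Its fitted log2 fold change was 5.99 (SE 0.52, adjusted p 1.28e-05), and it too passed the filter only through its hypoxic samples. Fgf15, the third endocrine member, had 0, 0 and 0 counts in normoxia and 0, 1 and 1 in hypoxia and was not tested. Trib1 was at 21.1 ± 2.52 and 28.4 ± 1.74 CPM (log2 fold change 0.43, adjusted p 0.00335), under the fold threshold. Chac2 was at 4.13 and 4.12 CPM, and Atf5, a factor close to Atf4, was at 329 ± 29.2 and 285 ± 26.5 CPM with an adjusted p of 0.0598.

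For 7 pairs of genes, chosen with their values known, the within-sample log2 ratio was compared by an exact two-sided permutation test, which cannot go below p = 0.1 with 3 against 3 samples. Sesn2 to Sesn3 (difference 1.41), Ppp1r15a to Ppp1r15b (0.86) and Sesn2 to Sesn1 (0.41) each reached an exact p of 0.1, or 0.233 after Benjamini-Hochberg adjustment over the 7 pairs. The ratio of Trib3 to Trib2 differed by -0.56 and that of Chac1 to Chac2 by -0.47, each at an exact p of 0.2. Asns and Aars, the alanyl-tRNA synthetase gene, kept a log2 ratio of -2.22 in both conditions. Aars had the lowest log2 fold change, -0.53, of the 20 aminoacyl-tRNA synthetases listed, whose median was -0.22.

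Compared per length, as CPM per kilobase of exon, the order of levels differed between conditions, with Vldlr 5 places higher in hypoxia and Asns 4 places lower. In normoxia Ddit4 was highest at 280 ± 24.6, followed by Atf4 at 85.1 ± 2.75 and Ddit3 at 31.6 ± 4.21 CPM per kilobase. Asns, Sesn2, Trib3 and Ppp1r15a came next, from 19.3 ± 1.32 down to 14.9 ± 1.32, and neighbours among these 4 overlapped. Vldlr at 9.16 ± 1.10, Chac1 at 3.94 ± 0.818 and Fgf21 at 0.161 ± 0.173 closed the order without overlap. In hypoxia Ddit4 at 494 ± 50.1 and Atf4 at 98.3 ± 4.86 CPM per kilobase again led, and Vldlr at 36.8 ± 0.639 overlapped Ddit3 at 35.6 ± 3.12. Ppp1r15a followed at 26.8 ± 2.34, then Trib3 at 19.3 ± 3.11, which overlapped Sesn2 at 17.4 ± 0.427. Asns at 13.4 ± 1.28, Chac1 at 2.79 ± 0.288 and Fgf21 at 1.64 ± 0.365 came last.

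**Figure D3:**
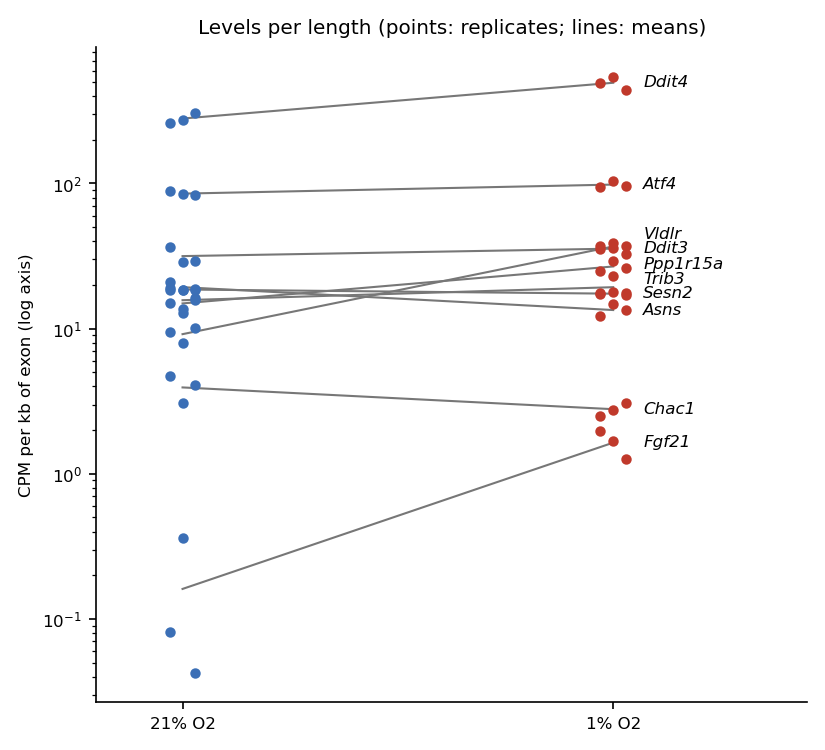
CPM per kilobase of exon (vertical log axis) of the 10 genes at 21% O2 (blue) and 1% O2 (red). Points are samples and lines join the group means. The line of Vldlr climbs from 9.16 to 36.8 past 5 other genes, while Ddit4 and Atf4 keep the top places.

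By the root mean square difference of mean-centred log2 CPM over the 6 samples, the genes most like Atf4 among 14239 were Stard13, Zbtb11 and Jmjd1c, at 0.012, 0.015 and 0.019. Mex3b, Dip2c and Arl5b were nearest to Ddit3, at 0.054 to 0.055, and Limk1, Hpse and Iba57 nearest to Ddit4, at 0.049 to 0.067.

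Apart from Ppp1r15a, described above and not counted again, 20 genes upstream of ATF4 were listed. Of these genes for eIF2 kinases, eIF2, its exchange factor eIF2B, its other phosphatase subunits and related factors, edgeR and DESeq2 each called 0. At an unadjusted edgeR p under 0.05, 2 were higher and 11 lower, against 33.4% and 33.1% of all genes tested. The log2 fold change was 0.37 for Eif2ak4, which encodes the amino acid sensor GCN2, and -0.15 for Eif2ak3, which encodes the ER sensor PERK. For the other eIF2 kinase genes, Eif2ak1 and Eif2ak2, it was -0.17 and -0.33. In the other arms of the ER stress response, 2 of 16 genes were called, both higher, or 12.5% against 18.9% of all genes tested. At an adjusted p under 0.05 alone 4 were higher and 7 lower, against 31.8% and 31.0% of all genes tested. Ern1, the sensor IRE1, rose from 44.9 ± 1.78 to 109.5 ± 13.1 CPM (log2 fold change 1.29, adjusted p 2.71e-06), and Dnajb9, an ER co-chaperone, rose by a log2 fold change of 0.68 (adjusted p 1.83e-05). The median of these 16 was -0.05.

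Of 10 partners of ATF4, 5 were called higher and 1 lower, where 18.9% and 15.3% of all genes tested were, and the median log2 fold change was 0.42. At an unadjusted edgeR p under 0.05, 6 were higher and 3 lower, against 33.4% and 33.1% of all genes tested. Cebpd, a C/EBP factor, rose from 46.4 ± 5.37 to 156 ± 11.4 CPM (log2 fold change 1.75, adjusted p 6.38e-07). Jun rose from 90.6 ± 5.98 to 222 ± 22.3 CPM (1.29). Nupr1, a small stress-induced cofactor, rose from 66.7 ± 6.45 to 151 ± 3.89 CPM (log2 fold change 1.18). Jdp2, a repressor that dimerizes with such factors, fell from 26.4 ± 2.22 to 16.9 ± 1.56 CPM (log2 fold change -0.64).

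Other known ATF4 targets went both ways, with 9 of 32 called higher and 9 lower (28.1% each, against 18.9% and 15.3% of all genes tested) and a median log2 fold change of 0.12. Among those that rose, Stc2, a secreted glycoprotein, went from 18.3 ± 2.99 to 124 ± 2.05 CPM (log2 fold change 2.76, adjusted p 9.00e-08). Slc7a11, the cystine importer, went from 15.8 ± 3.05 to 58.1 ± 13.4 CPM (1.88, adjusted p 2.36e-05), and Cdsn from 1.66 ± 0.145 to 5.54 ± 0.457 CPM (1.73). Among those that fell were the serine synthesis enzymes Phgdh, from 72.0 ± 9.71 to 22.2 ± 1.19 CPM (log2 fold change -1.69, adjusted p 1.15e-06), and Psat1, from 87.0 ± 3.60 to 39.8 ± 4.99 CPM (-1.13). Gdf15, a stress cytokine, fell from 43.3 ± 0.802 to 16.6 ± 3.60 CPM (-1.38, adjusted p 1.95e-05). Of 20 aminoacyl-tRNA synthetases, edgeR and DESeq2 each called 0, and at an unadjusted edgeR p under 0.05, 12 were lower and 2 higher (33.1% and 33.4% of all genes tested were), with log2 fold changes between -0.53 and 0.37 and a median of -0.22.

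**Figure D4:**
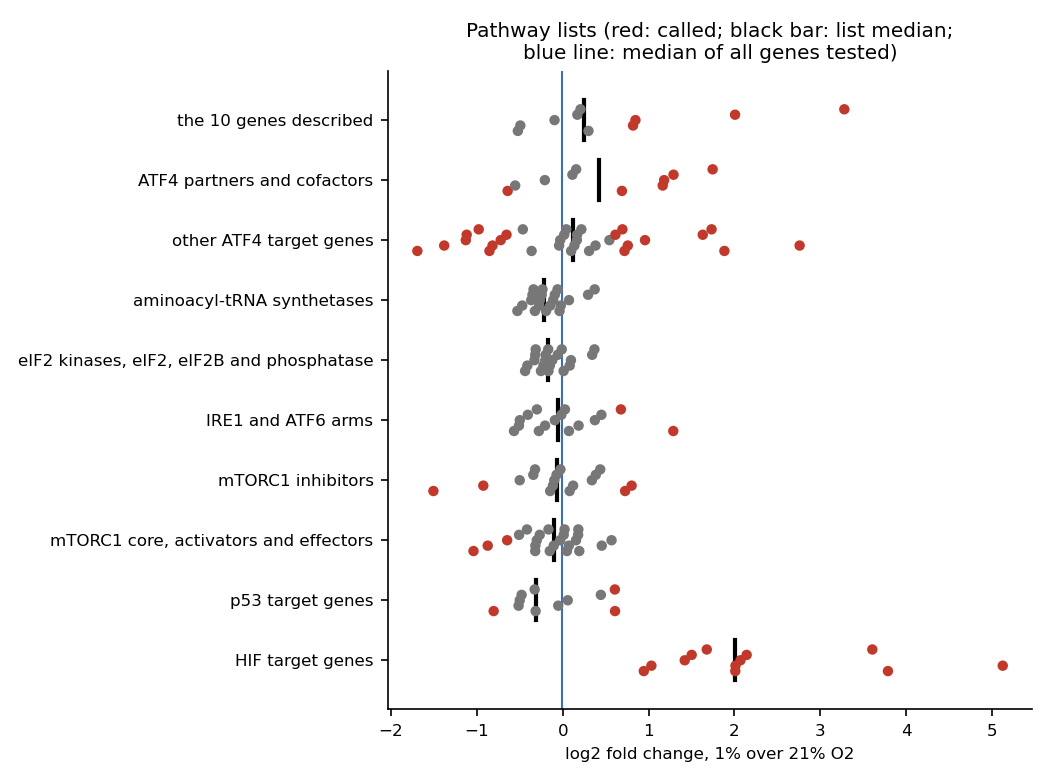
Log2 fold change of hypoxia over normoxia (horizontal axis) of each tested gene in the pathway lists. Red points are called genes, black bars list medians and the blue line the median of all genes tested, -0.00. The 12 HIF targets lie to the right with a median of 2.01, whereas other ATF4 targets spread to both sides around 0.12.

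Among 17 further mTORC1 inhibitors, 2 were called higher and 2 lower (11.8% each, against 18.9% and 15.3% of all genes tested). At an adjusted p under 0.05 alone, 5 were higher and 5 lower, where 31.8% and 31.0% of all genes tested were. The median log2 fold change was -0.07. Depdc5, a subunit of GATOR1, rose from 23.9 ± 1.68 to 41.7 ± 3.72 CPM (log2 fold change 0.80, adjusted p 3.71e-05), and Bmt2, which encodes the S-adenosylmethionine sensor SAMTOR, rose from 21.0 ± 1.03 to 34.7 ± 0.422 CPM (0.73). Deptor, an inhibitory partner of mTOR, fell from 30.2 ± 0.736 to 15.9 ± 1.04 CPM (log2 fold change -0.93, adjusted p 6.15e-06), as did Sesn3, described above. Of 23 tested genes of the mTORC1 core, its activators and effectors, the 3 called were all lower, 13.0% against 15.3% of all genes tested. At an adjusted p under 0.05 alone, 4 were higher and 10 lower, against 31.8% and 31.0% of all genes tested, and the median was -0.10. The called genes were Rragd, a Rag GTPase (log2 fold change -1.04), and the Ragulator subunits Lamtor4 (-0.87) and Lamtor1 (-0.65), which anchor mTORC1 at the lysosome.

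Of 11 genes listed as receptors of FGF21 and ligands of VLDLR, 6 were tested, and the 3 called were all lower. Among all genes tested 15.3% were called lower and 18.9% higher. At an adjusted p under 0.05 alone, 1 of the 6 was higher and 3 lower, against 31.8% and 31.0% of all genes tested. Fgfr2 fell from 28.1 ± 2.87 to 7.87 ± 0.925 CPM (log2 fold change -1.84, adjusted p 1.57e-06). Apoe, a lipoprotein ligand also made by macrophages, fell from 5021 ± 606 to 1929.7 ± 368 CPM (-1.38), and Lpl, lipoprotein lipase, from 4961 ± 368 to 3231 ± 158 CPM (-0.62). For comparison, 12 of 12 known HIF targets rose, with a median of 2.01, led by Car9 (5.13), Ndrg1 (3.79) and Egln3 (3.61). Of 11 p53 targets, a pathway that also acts on Sesn2, 2 were called higher and 1 lower (18.2% and 9.09%). Among all genes tested 18.9% and 15.3% were. Cdkn1a and Mdm2 were higher, at 0.61 each, and Phlda3 was lower, at -0.80. At an adjusted p under 0.05 alone 2 were higher and 6 lower, against 31.8% and 31.0% of all genes tested, and the list median was -0.32. Over all these lists 34 of 171 tested genes were called higher, 12 of them the HIF targets, and 19 lower, or 19.9% and 11.1% against 18.9% and 15.3% of all genes tested, with a median of -0.03.

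Exons of several genes named above overlap those of a gene on the other strand, and with the strand setting unknown their counts are uncertain. The overlap was 562 bases for Cebpd (with Spidr), 600 for Lamtor1 (with Lrrc51), 303 for Deptor, 232 for Jun, 214 for Car9 and 165 for Jdp2. Taking the largest overlap of each, it was 761 bases for Fgf15, 640 for Ppp1r15b, 487 for Eif2ak1, 485 for Eif2ak3 and 419 for Ndrg1. Smaller ones were 273 for Cdkn1a, 174 for Eif2ak2, 82 for Atf5 and 14 for Dnajb9. Aars and Fgfr2 share exon bases with Exosc6 and Ctbp2 on the same strand.

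Markers of other cell types were measured beside these genes. The 10 fibroblast and stellate markers summed to between 28087 and 35235 CPM in normoxia and between 30300 and 35091 CPM in hypoxia. Single fibroblast and stellate markers differed in both directions, with log2 fold changes from -2.17 to 0.99. Among them 2 were called higher and 1 lower, where 18.9% and 15.3% of all genes tested were. At an adjusted p under 0.05 alone, 4 were higher and 4 lower, against 31.8% and 31.0% of all genes tested. The 10 macrophage markers, all detected, summed to between 847 and 1486 CPM in normoxia and between 443 and 780 CPM in hypoxia. Of these, 6 were called lower and 0 higher, where 15.3% and 18.9% of all genes tested were. The 10 epithelial markers summed to between 0.835 and 2.31 CPM and between 21.2 and 24.8 CPM, with Epcam, Cdh1 and Elf3 under 0.1 CPM in every sample and Esrp1 at 0, and nearly all of the hypoxic sum was Krt19, which rose by a log2 fold change of 4.94. Endothelial markers summed to between 17.7 and 24.2 CPM in normoxia and between 26.0 and 36.0 CPM in hypoxia. Of the 7 tested, 2 were called higher and 2 lower (28.6% each, against 18.9% and 15.3% of all genes tested). Their median log2 fold change was -0.11. Of 8 acinar markers, 4 were at 0 in every sample, and the list summed to between 10.1 and 12.6 CPM in normoxia and between 8.26 and 9.40 CPM in hypoxia. The part of these cell types in the differences above was not tested.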

How the data were processed

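RNA from 6 PSC cocultures was sequenced as poly(A) libraries. The authors trimmed reads with Cutadapt, mapped them to GRCm38 with STAR 2.6.1b and assigned them to genes with RSEM 1.3.1, per the labels and methods. The values they deposited are expected counts, RSEM's estimate for each gene and sample, not normalized, and 0 of them had a fraction. The annotation release and strand setting are not given in the sources used here. Identifiers were matched to GENCODE M21 (55240 found, 186 not).

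Counts were analysed in edgeR 4.0.16 (limma 3.58.1, R 4.3.3) with filterByExpr, TMM normalization and the quasi-likelihood test, without a replicate block, with Benjamini-Hochberg adjustment over 16207 genes. CPM are counts over the TMM-scaled library size. The SE is the log2 fold change over the square root of F. The fit was tested on simulated data. At these depths 3 counts correspond to 0.0943 to 0.122 CPM, and intervals on counts cover counting error only. DESeq2 1.42.0, other normalizations, no filter, other thresholds, the block and each sample left out were alternatives.

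The 10 genes and the lists were chosen with earlier results of these data known. All 10 genes and their 11 listed paralogs are named (1 further item of the list is not reported here), and from each list at most 3 called genes per direction with the largest change at a mean of at least 1 CPM. Other named genes, among them Aars, Eif2ak3, Eif2ak4 and the markers, were chosen after their values were seen. The likeness measure used log2(CPM + 0.1).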

Additional observations from a re-analysis of the deposited data

How the results depend on the processing

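The same 4 genes, Vldlr, Fgf21, Ppp1r15a and Ddit4, were called higher in each of the 12 other fits. These were DESeq2, RLE, upper-quartile and library-size-only scaling (the last chosen after seeing the data), no filter on low counts, the replicate block, and leaving out each of the 6 samples. Leaving out 1 sample gave between 0 and 1 of the 10 genes called lower, Chac1 without normoxic replicate 2 and Asns without hypoxic replicate 2. With no fold threshold, 10168 genes were called, 5150 higher and 5018 lower, including 7 of the 10, with 2 of them lower, and 118 genes of the other lists, 52 higher and 66 lower. With a fold threshold of 2, 3156 genes were called, 1929 higher and 1227 lower, including 2 of the 10, both higher (Fgf21 and Vldlr), and 29 of the lists, 21 higher and 8 lower. No direction was reversed for any of the 10 genes. Samples with the same number had deviations that correlated at 0.142, 0.139 and 0.0378, and each sample correlated best with its own number, a hint from the data and not the design. With the replicate block 5572 genes were called, against 5547 without it, and 4 and 0 of the 10 genes were called higher and lower. Depth limits Fgf21 most, with 12 normoxic counts in all.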
